A study of Homo sapiens with 6 samples.

Results

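Genes for 8 proteins that viruses use to enter human cells were followed in EndoC-BH5 cells, a line of human pancreatic beta cells, after exposure to inflammatory cytokines. The genes were CXADR, CD55, CD46, TMPRSS2, DPP4, NRP1, FCGRT and BSG, taken by name from the 60611 genes of the deposited table. All 8 were present in the table, and 7 held enough counts to be tested. RNA was sequenced in 6 libraries of this wild-type line, 3 given interferon gamma together with interleukin 1 beta (the cytokine group) and 3 given vehicle (the vehicle group). The series describes the 3 of a group as batches and does not call them separate cultures, so the p-values rest on the spread among these libraries, which may be technical. All libraries came from a single line, and neither the dose nor the duration of the treatment was given in the sources used here.

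A virus enters a cell by binding a surface protein that serves the cell in another role, and the set of such proteins that a cell makes helps to set which viruses can infect it. CXADR, CD55 and FCGRT serve enteroviruses, among them the group B coxsackieviruses that have long been studied in pancreatic beta cells. CXADR is an adhesion protein of cell junctions and the main receptor of those coxsackieviruses, CD55 is a complement regulator to which many enteroviruses attach, and FCGRT is the heavy chain of the neonatal Fc receptor, which several enteroviruses need to release their genome. NRP1, TMPRSS2 and DPP4 are linked to coronavirus entry, as BSG has been proposed to be, and CD46 is bound by measles vaccine strains and some adenoviruses.

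Cytokines were followed by unequal changes in these genes. NRP1 rose 3.08-fold, CD55 rose 1.48-fold and BSG rose 1.21-fold, while CXADR fell to 0.836 of its vehicle level. FCGRT, CD46 and DPP4 did not pass the test, and TMPRSS2 was close to absent in both groups. Thus 4 of the 7 tested genes passed the edgeR quasi-likelihood test, 3 higher and 1 lower. Of all 17847 tested genes, 57.1% passed, 28.3% higher and 28.8% lower, so the receptor genes passed about as often as genes in general. Levels are given in CPM, counts relative to a library of fixed size, after TMM scaling for library size and composition. A change is the log2 of the cytokine level over the vehicle level, given with its standard error (SE).

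The total count was 13689972 to 16175364 in the cytokine libraries and 5871481 to 15894082 in the vehicle libraries, with the lowest in vehicle replicate 1. All 10 beta-cell markers examined were above 1 CPM in every library, and together they summed to 13402 to 14057 CPM with cytokines and 9609 to 10311 CPM with vehicle. Their members moved both ways, with 3 higher and 7 lower by the edgeR test. INS averaged 3641 ± 289.8 CPM with cytokines and 4012 ± 163 CPM with vehicle (SD, n = 3 each), and IAPP 8238 ± 208 and 3998 ± 192 CPM. G6PC2 averaged 6.63 ± 0.194 CPM with cytokines and 42.0 ± 2.45 CPM with vehicle, and MAFA 1.46 ± 0.131 and 5.16 ± 1.03 CPM. The 4 endothelial markers together reached at most 1.13 CPM with cytokines and 1.05 CPM with vehicle. The 4 leukocyte markers summed to 22.9 to 24.6 CPM with cytokines and 8.01 to 8.10 CPM with vehicle, led by CD68 at 21.4 and 5.14 CPM, with PTPRC at 0.117 and 0.131 CPM. The 3 stromal markers summed to 12.4 to 13.8 CPM with cytokines and 3.18 to 4.09 CPM with vehicle, mostly PDGFRB. The 4 duct markers summed to 131 to 140 CPM with cytokines and 151 to 169 CPM with vehicle, led by KRT19. The 4 alpha-cell markers summed to 676 to 694 CPM with cytokines and 213 to 223 CPM with vehicle, led by GC, while GCG was lower with cytokines. The 2 delta-cell markers summed to 561 to 599 CPM with cytokines and 532 to 600 CPM with vehicle, PPY stayed below 0.5 CPM, and the 4 acinar markers summed to at most 5.97 CPM, with PRSS1 at 0 in all libraries. The part of other cell types in the receptor results was not tested.

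Promoter sequence is shown for genes that differed in response although they lie close together or share high levels, and it is credited to RefSeq on GRCh38.p14. CD55 and CD46 lie in a cluster of complement regulator genes on chromosome 1 and BSG on chromosome 19, all on the plus strand. Each line gives the 250 bases before an annotated start, 5′ to 3′, with matches to the GC box GGGCGG on either strand in capitals. The windows are chr1:207321428-207321677 for CD55, chr1:207751788-207752037 for CD46 and chr19:572346-572595 for BSG. The CD55 and BSG windows lie inside the GENCODE 29 spans of these genes, since the start chosen is not the first one annotated there.
CD55: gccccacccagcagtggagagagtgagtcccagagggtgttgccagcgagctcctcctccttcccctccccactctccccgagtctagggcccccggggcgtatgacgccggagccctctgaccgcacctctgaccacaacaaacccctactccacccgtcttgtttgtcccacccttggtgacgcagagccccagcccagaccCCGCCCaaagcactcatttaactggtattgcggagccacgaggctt
CD46: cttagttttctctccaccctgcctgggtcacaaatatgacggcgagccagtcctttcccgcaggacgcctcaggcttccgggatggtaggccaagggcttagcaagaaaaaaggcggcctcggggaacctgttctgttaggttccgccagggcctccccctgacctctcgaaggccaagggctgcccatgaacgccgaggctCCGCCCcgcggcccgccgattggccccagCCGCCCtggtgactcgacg
BSG: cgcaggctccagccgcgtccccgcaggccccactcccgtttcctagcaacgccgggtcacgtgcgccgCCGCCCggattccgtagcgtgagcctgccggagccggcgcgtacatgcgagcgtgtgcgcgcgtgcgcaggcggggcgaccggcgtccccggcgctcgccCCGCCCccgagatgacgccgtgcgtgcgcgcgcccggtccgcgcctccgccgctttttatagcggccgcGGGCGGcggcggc
The CD55 window held 1 GC box, the CD46 window 2 and the BSG window 3, and 42.6% of all 35116 promoter windows of this length held at least 1. CD46 and BSG each had another annotated window, not printed, with 3 GC boxes for CD46 and 0 for BSG, so these numbers depend on the start chosen. Of the 8 genes, 5 had an entry in the promoter table, in 7 windows, and 0 of the 7 windows matched the interferon gamma-activated site TTCNNNGAA, the interferon regulatory factor motif (GAAA, any 2 bases, GAAA) or the NF-kappaB consensus, searched on both strands. Over all windows, 6.57%, 3.02% and 9.96% held a match to these 3 motifs. CXADR, NRP1 and TMPRSS2 had no entry, so NRP1 and CXADR, which passed the expression test, were not searched. A match is only a run of letters, and a window without one says nothing of the factor.

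**Figure D1:**
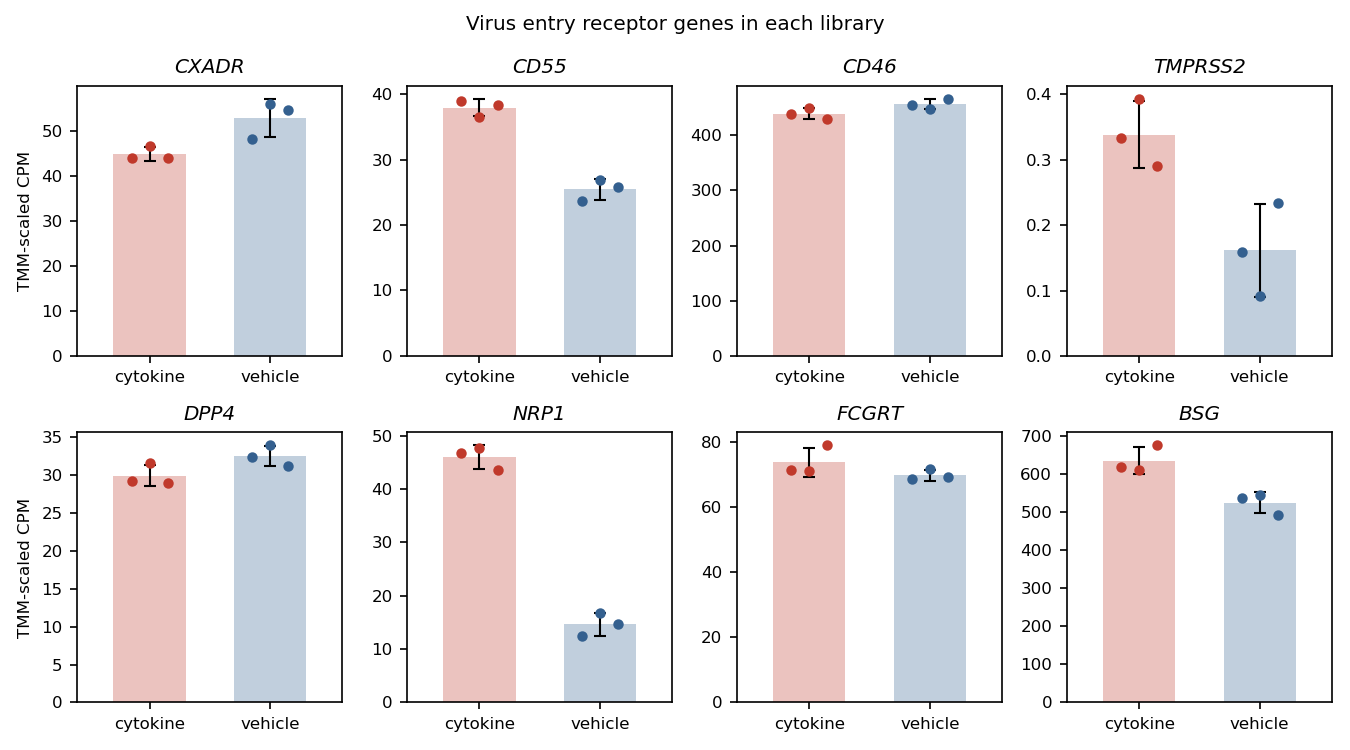
TMM-scaled CPM of the 8 entry receptor genes, with each point a library, bars the group mean and error bars the SD (n = 3 each); each panel has its own axis from 0. NRP1, CD55 and BSG are higher in all 3 cytokine libraries than in any vehicle library and CXADR is lower, while the TMPRSS2 axis ends near 0.4 CPM.

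Among the enterovirus receptors, CXADR, on chromosome 21 at 17512382 to 17593579 on the plus strand (GRCh38), had 44.1, 46.5 and 43.9 CPM in cytokine replicates 1, 2 and 3, against 48.1, 56.1 and 54.5 CPM in vehicle replicates 1, 2 and 3. All 3 cytokine libraries lay below all vehicle libraries, and the narrowest gap was to vehicle replicate 1. The log2 change was -0.26 with SE 0.061 and a 95% interval from -0.38 to -0.13 (edgeR, adjusted p = 0.00060). The absolute change was larger than that of 46.8% of tested genes, which places it near the middle of the transcriptome. The annotated pseudogenes CXADRP1, CXADRP2 and CXADRP3 had 0 counts in every library.

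CD55, the decay-accelerating factor that takes complement convertases apart on the cell surface, had 39.0, 36.5 and 38.4 CPM in the cytokine libraries, against 23.7, 26.9 and 25.7 CPM in the vehicle libraries. The lowest cytokine library was well above the highest vehicle library. The log2 change was 0.56 with SE 0.068 and a 95% interval from 0.43 to 0.70 (edgeR, adjusted p = 3.1e-08). Its absolute change was larger than that of 75.4% of tested genes. The gene lies on chromosome 1 at 207321376 to 207386804.

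FCGRT, which binds IgG and albumin in acidic endosomes and returns them to the surface, had 71.5, 71.1 and 79.1 CPM in the cytokine libraries, against 68.6, 71.7 and 69.2 CPM in the vehicle libraries. The groups overlapped, and only cytokine replicate 3 stood above all vehicle libraries. The log2 change of 0.080 had a 95% interval from -0.030 to 0.19 (edgeR, adjusted p = 0.21), and its sign turned to -0.12 with scaling by library size alone (edgeR, adjusted p = 0.047). Its obligate partner B2M, the light chain also shared by class I molecules, averaged 3796 ± 125 CPM with cytokines and 423 ± 11.6 CPM with vehicle, a log2 change of 3.16 (edgeR, adjusted p = 1.3e-31). Per kilobase of exon, B2M exceeded FCGRT 35.1, 37.3 and 33.7-fold in the cytokine libraries, against 4.13, 4.18 and 4.18-fold in the vehicle libraries. FCGRT lies on chromosome 19 at 49506816 to 49526333.

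CD46, a cofactor by which factor I inactivates complement on host cells, had 439, 449 and 429 CPM in the cytokine libraries, against 455, 448 and 466 CPM in the vehicle libraries. The groups overlapped between cytokine replicate 2 and vehicle replicate 2. The log2 change of -0.057 had a 95% interval from -0.14 to 0.023 (edgeR, adjusted p = 0.22). With scaling by library size alone it was -0.26 and passed (edgeR, adjusted p = 1.1e-06). CD46 lies on chromosome 1 at 207752057 to 207795513.

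The start of CD55 and the end of CD46 are 474138 bases apart, and GENCODE 29 places 12 genes of the table in this stretch. In counts taken within a library, which need no scaling between libraries, CD55 equalled 8.89%, 8.13% and 8.95% of CD46 in the cytokine libraries, against 5.20%, 6.01% and 5.52% in the vehicle libraries. The ratio was higher in all 3 cytokine libraries, so this pair of neighbouring complement regulators changed unequally whatever the scaling. Between them lie CR2 and CR1, complement receptors of leukocytes, with at most 6 counts in any library. CR1L, a CR1-like gene next to CD46, was chosen after its values were seen. It had 47.5, 37 and 47 counts in the cytokine libraries, against 5.5, 1.5 and 7 counts in the vehicle libraries. With so few vehicle counts, it passed the count filter through its cytokine libraries. Its log2 change of 2.83 (SE 0.31) is therefore given without a p-value. The pseudogene CD46P1 overlaps CR1L on the same strand and had 7.5, 13 and 12.5 counts in the cytokine libraries, against 1, 0.67 and 5 in the vehicle libraries. Single values of CR1L and CD46P1 are therefore uncertain, and both were small beside CD46.

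Of the genes linked to coronavirus entry, NRP1 changed the most. NRP1, a coreceptor for secreted semaphorins and vascular endothelial growth factors that also binds furin-cleaved coronavirus spikes, had 46.7, 47.8 and 43.6 CPM in the cytokine libraries, against 12.6, 16.8 and 14.6 CPM in the vehicle libraries. Every cytokine library was far above every vehicle library, and vehicle replicate 1, with 79 counts, was the lowest. The log2 change was 1.62 with SE 0.079 and a 95% interval from 1.46 to 1.79 (edgeR, adjusted p = 6.2e-17). The absolute change was larger than that of 95.6% of tested genes, and NRP1 ranked 599 from the top by log2 change. An antisense gene, AL121748.2, shares 561 exon bases with it but had at most 2 counts in any library. On chromosome 10 the gene spans 33177492 to 33336262, minus strand. In counts within a library NRP1 equalled 106%, 103% and 99.3% of CXADR with cytokines, against 26.1%, 30.02% and 26.8% with vehicle. These counts are not corrected for exon length, and the shift includes the fall of CXADR. Per kilobase of exon NRP1 stayed below CXADR, at 3.996 against 6.71 CPM with cytokines and 1.27 against 7.92 CPM with vehicle.

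DPP4, a surface peptidase that inactivates incretin hormones and is the receptor of the Middle East respiratory syndrome coronavirus, had 29.2, 31.5 and 28.97 CPM in the cytokine libraries, against 32.4, 33.9 and 31.2 CPM in the vehicle libraries. The groups overlapped by a narrow margin, between cytokine replicate 2 and vehicle replicate 3. The log2 change of -0.12 had a 95% interval from -0.26 to 0.021 (edgeR, adjusted p = 0.14). It was -0.32 and passed with scaling by library size alone (edgeR, adjusted p = 0.00016). An antisense gene that shares 172 exon bases with DPP4 had at most 6 counts in any library. On chromosome 2 DPP4 spans 161992241 to 162074542, minus strand.

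TMPRSS2, a serine protease that cleaves viral spikes at the cell surface, had 5, 5 and 4 counts in the cytokine libraries, against 1, 1 and 4 counts in the vehicle libraries. These are 0.333, 0.393 and 0.290 CPM with cytokines and 0.159, 0.0919 and 0.234 CPM with vehicle, a range that did not overlap but rests on a handful of counts. Pooled over each group, 14 counts against 6 gave a scaled ratio of 1.92 with an exact 95% interval from 0.695 to 6.11, which covers counting error only. The gene lay below the count filter and was not tested, and without that filter it did not pass (edgeR, adjusted p = 0.50). A difference was not detectable at this depth. On chromosome 21 TMPRSS2 spans 41464551 to 41531116, minus strand.

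BSG, or basigin, an immunoglobulin-family protein that escorts monocarboxylate transporters to the membrane, had 621, 612 and 676 CPM in the cytokine libraries, against 537, 545 and 494 CPM in the vehicle libraries. The cytokine libraries lay above all vehicle libraries. The log2 change was 0.28 with SE 0.044 and a 95% interval from 0.19 to 0.37 (edgeR, adjusted p = 3.5e-06). The call was lost with scaling by library size alone, where the change was 0.078 (edgeR, adjusted p = 0.11). In counts within a library, BSG equalled 142%, 136% and 158% of CD46 with cytokines, against 118%, 122% and 106% with vehicle. The antisense gene BSG-AS1 shares 140 exon bases with BSG, on chromosome 19 at 571277 to 583493, but had 9 counts in each cytokine library and at most 19.5 in a vehicle library. In bulk RNA of this kind, fewer cells with a transcript and less of it per cell cannot be told apart.

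**Figure D2:**
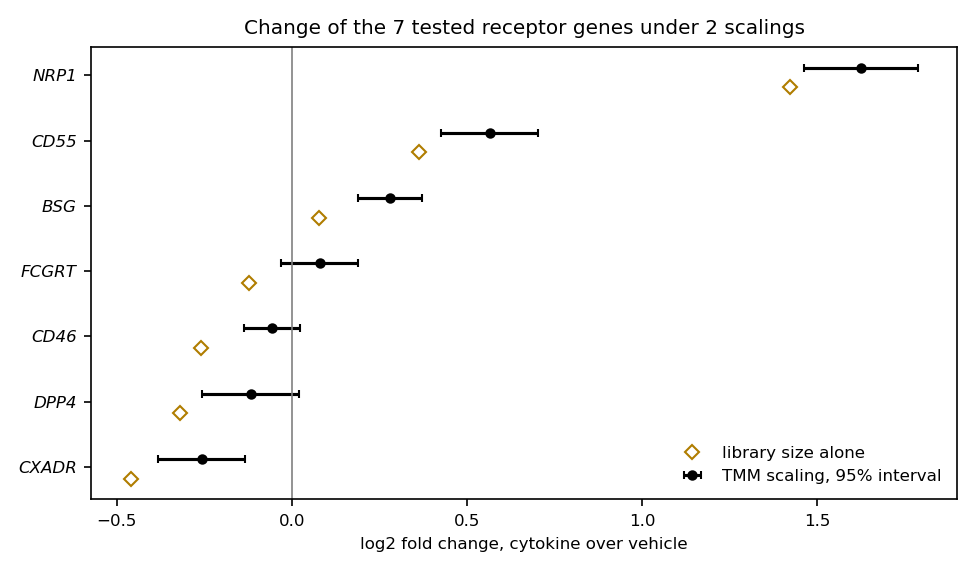
Log2 fold change of cytokine over vehicle for the 7 tested genes, with TMM scaling (filled points, 95% interval) and with scaling by library size alone (open diamonds). NRP1 at 1.62 and CD55 at 0.56 stay above 0 and CXADR at -0.26 stays below 0 under both scalings, while FCGRT changes sign.

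Scaling mattered to the small changes. Scaling by library size alone shifted the median of all tested genes by -0.20 on the log2 scale. It gave 2 higher genes, NRP1 and CD55, and 4 lower ones, CXADR, CD46, DPP4 and FCGRT, in place of 3 higher and 1 lower with TMM. Over all tested genes 65.9% passed with library size alone, 16.7% higher and 49.2% lower. NRP1, CD55 and CXADR thus kept their direction and their call under both scalings. With TMM, cytokine and vehicle values were fully apart in 4 of the 7 tested receptor genes, beside 61.1% of all tested genes. In the authors' deposited results the same 4 genes had an FDR below 0.05. Their log2 fold changes there were 1.63 for NRP1, 0.57 for CD55, 0.28 for BSG and -0.27 for CXADR. In all, 9801 of the 60611 genes passed there, or 16.2%. That share counts every deposited gene, with or without reads, so it cannot be set beside the shares of the 17847 tested genes.

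Per kilobase of merged exons, which allows levels of different genes to be set side by side, BSG was the highest of the 8 at 168 ± 9.16 CPM with cytokines and 138 ± 7.19 CPM with vehicle (SD, n = 3 each). CD46 followed at 50.4 ± 1.14 CPM per kilobase with cytokines and 52.4 ± 1.05 with vehicle, and FCGRT at 17.7 ± 1.08 with cytokines and 16.7 ± 0.388 with vehicle. With cytokines, CXADR at 6.71 ± 0.221, CD55 at 6.42 ± 0.224 and DPP4 at 5.97 ± 0.281 CPM per kilobase overlapped their neighbours in that order, so their order was not resolved. With vehicle, the order was CXADR at 7.92 ± 0.628, DPP4 at 6.49 ± 0.267 and CD55 at 4.31 ± 0.278, with no overlap between neighbours. NRP1 stood at 3.996 ± 0.189 CPM per kilobase with cytokines and 1.27 ± 0.185 with vehicle, and TMPRSS2 at 0.0553 ± 0.00849 and 0.0264 ± 0.0116. Exons of all annotated transcripts were merged for the length, so the levels of genes with long untranslated variants are understated.

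**Figure D3:**
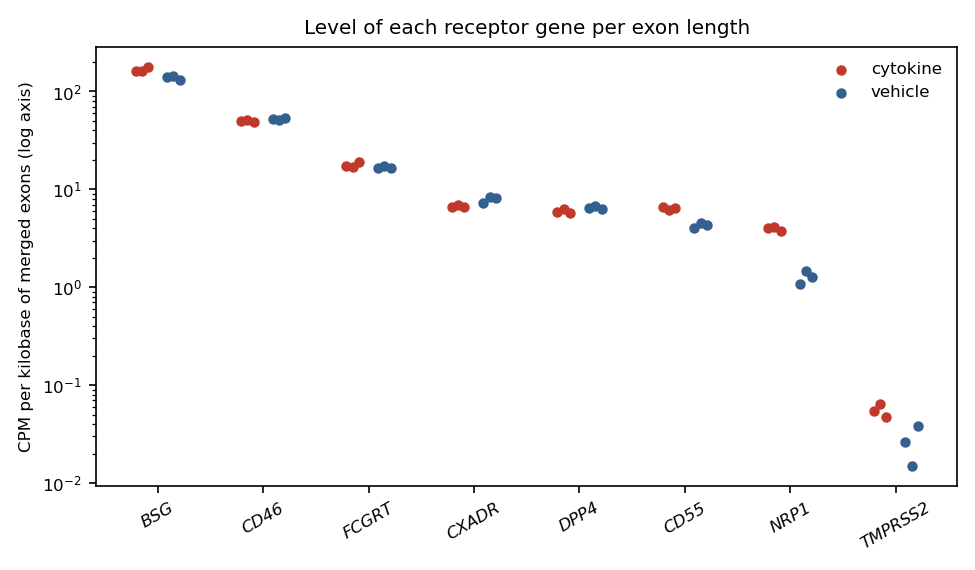
TMM-scaled CPM per kilobase of merged exons for the 8 genes, on a log axis, with each point a library and genes ordered by their vehicle mean. Levels run from 138 for BSG to 0.0264 for TMPRSS2 with vehicle, and NRP1 shows a cytokine cluster near 3.996 well above its vehicle cluster near 1.27.

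Other human virus receptors and entry factors were examined as a list of 45 genes, of which 33 were tested. Of these 20 were higher, 6 lower and 7 did not pass, with a median log2 change of 0.42 beside -0.019 over all tested genes. Thus 78.8% passed, beside 57.1% of all tested genes. The list was chosen with earlier results of these data known. Genes nearly silent in vehicle, such as ICAM1, could be tested only because they rose. The difference from all tested genes was not tested, and the choice of genes bears on it. Scaling by library size alone gave 17 higher and 9 lower, with a median of 0.22 beside -0.22 over all genes. ICAM1, a leukocyte adhesion molecule that is also the receptor of most rhinoviruses, had 4062, 3277 and 3589 counts in the cytokine libraries and 0, 0 and 1 in the vehicle libraries. TNFRSF14, a herpes simplex virus entry mediator, averaged 167 ± 7.36 CPM with cytokines and 37.3 ± 0.985 CPM with vehicle, a log2 change of 2.17 (edgeR, adjusted p = 2.7e-24). LDLRAD3, a receptor of Venezuelan equine encephalitis virus, fell to 9.95 CPM with cytokines, against 23.6 CPM with vehicle. KREMEN1, a coxsackievirus A receptor, fell to 9.86 CPM with cytokines, against 16.6 CPM with vehicle. PVR, the poliovirus receptor, averaged 120 and 105 CPM, and its rise of 0.19 on the log2 scale (edgeR, adjusted p = 0.00097) turned to -0.013 and was lost with library size alone (edgeR, adjusted p = 0.83).

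**Figure D4:**
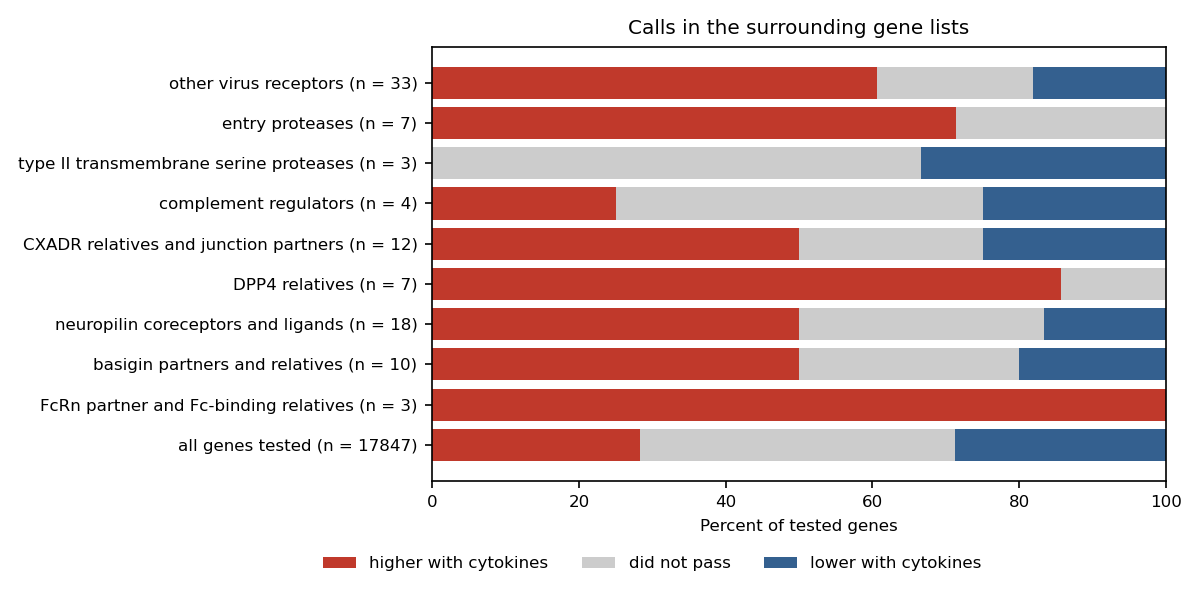
Percent of tested genes that were higher, did not pass or were lower with cytokines in 9 lists around the receptor genes, with all tested genes in the bottom bar and the number tested beside each name. Of other virus receptors 20 of 33 were higher and of entry proteases 5 of 7, while over all tested genes 28.3% were higher. The lists were chosen with earlier results of these data known, and a gene nearly silent in vehicle was tested only if it rose.

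Of 12 listed proteases that cut viral glycoproteins, 7 were tested, 5 were higher and 2 did not pass. Thus 71.4% of those tested passed, beside 57.1% of all tested genes. Library size alone gave 5 higher and 1 lower. PCSK7, a proprotein convertase, averaged 115 ± 1.86 CPM with cytokines and 64.1 ± 0.244 CPM with vehicle, and CTSB, a lysosomal protease, 176 ± 6.76 and 103 ± 3.11 CPM. FURIN, the convertase that cleaves many viral spikes, rose by 0.38 on the log2 scale (edgeR, adjusted p = 8.6e-08), and CTSL, which cleaves spikes in endosomes, by 0.40 (edgeR, adjusted p = 5.7e-06). Of 16 relatives of TMPRSS2 among the type II transmembrane serine proteases, 3 were tested, of which 1 was lower and 2 did not pass. Thus 33.3% of those tested passed. Library size alone gave 2 lower. The gene lower with TMM was TMPRSS6, known for its control of hepcidin in liver. It averaged 251 ± 9.49 CPM with cytokines and 275 ± 6.25 CPM with vehicle (edgeR, adjusted p = 0.0089). Its call was lost without cytokine replicate 1, without cytokine replicate 2 and without vehicle replicate 3, and the 15 alternatives gave adjusted p from 8.0e-08 to 1.0, the highest with glmTreat.

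Around CD55 and CD46, 4 of 14 complement regulators were tested, with 1 higher, 1 lower and 2 that did not pass. Thus 50% of those tested passed, beside 57.1% of all tested genes. Library size alone gave 0 higher and 3 lower. CD59, which blocks the membrane attack complex, averaged 220 CPM with cytokines and 210 CPM with vehicle and did not pass (edgeR, adjusted p = 0.23), but with library size alone its log2 change of 0.064 turned to -0.14 and passed (edgeR, adjusted p = 0.0076). CLU, a secreted chaperone that binds terminal complement, rose by 0.12 on the log2 scale (edgeR, adjusted p = 0.0069), which turned to -0.082 with library size alone (edgeR, adjusted p = 0.042). VTN, or vitronectin, fell to 38.8 CPM with cytokines, against 51.0 CPM with vehicle. The untested regulators had at most 13 counts in any library.

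Around CXADR, 12 of 15 junction relatives and partners were tested, with 6 higher, 3 lower and 3 that did not pass. Of those tested 75% passed, beside 57.1% of all tested genes. Library size alone gave 4 higher and 5 lower. F11R, the junctional adhesion molecule used by reoviruses, averaged 137 ± 4.01 CPM with cytokines and 87.5 ± 3.37 CPM with vehicle, a log2 change of 0.65 (edgeR, adjusted p = 1.1e-12). MAGI1, a junction scaffold that binds the CXADR tail, fell to 28.1 CPM with cytokines, against 45.0 CPM with vehicle. LNX1, a ubiquitin ligase that also binds CXADR, averaged 2.57 and 3.91 CPM and was lower (edgeR, adjusted p = 0.012), a call lost with DESeq2, at an adjusted p of 0.01, and without cytokine replicate 1 or 3, with adjusted p from 0.00081 to 1.0 over 15 alternatives.

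Around NRP1, 18 of 24 coreceptors and ligands were tested, with 9 higher, 3 lower and 6 that did not pass. Thus 66.7% of those tested passed, beside 57.1% of all tested genes. Library size alone gave 4 higher and 8 lower. NRP2, the other neuropilin, averaged 2.96 ± 0.615 CPM with cytokines and 1.02 ± 0.374 CPM with vehicle, which is 1.71 higher on the log2 scale (SE 0.27; edgeR, adjusted p = 2.8e-06). SEMA3E, a secreted semaphorin, averaged 2.04 CPM with cytokines and 0.398 CPM with vehicle. With only 4.12, 1 and 8.5 counts in the vehicle libraries, SEMA3E passed the count filter through its cytokine libraries. Such a gene could be tested only because it rose, so its place among the 9 higher carries no weight. SEMA3A, the best-known semaphorin ligand of NRP1 and chosen after its values were seen, averaged 78.2 ± 0.973 CPM with cytokines and 27.3 ± 1.93 CPM with vehicle, a log2 change of 1.49 (edgeR, adjusted p = 6.3e-19). PLXND1, a plexin that signals for semaphorins, fell to 27.6 ± 0.479 CPM with cytokines, against 63.6 ± 5.50 CPM with vehicle. PGF, a placental growth factor that binds neuropilins, fell to 11.3 ± 1.34 CPM with cytokines, against 30.7 ± 2.62 CPM with vehicle. VEGFA, the main endothelial growth factor, averaged 433 ± 2.60 and 416 ± 20.2 CPM and did not pass (edgeR, adjusted p = 0.22), but with library size alone its log2 change of 0.060 turned to -0.14 and passed (edgeR, adjusted p = 0.0032). KDR and FLT1, the endothelial receptors with which NRP1 pairs, were not tested for low counts, and untested genes of the list had at most 11 counts in any library.

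Around BSG, 10 of 11 partners and relatives were tested, with 5 higher, 2 lower and 3 that did not pass. Of those tested 70% passed, beside 57.1% of all tested genes. Library size alone gave 5 higher and 4 lower. PPIB, a secreted cyclophilin of the endoplasmic reticulum, averaged 617 ± 25.9 CPM with cytokines and 318 ± 20.5 CPM with vehicle, while PPIA, the cytosolic cyclophilin that binds basigin outside the cell, averaged 410 and 428 CPM and did not pass (edgeR, adjusted p = 0.22). With library size alone PPIA had a log2 change of -0.26 and passed (edgeR, adjusted p = 2.5e-06). SLC7A5, an amino acid transporter, averaged 126 CPM with cytokines and 58.7 CPM with vehicle. The relative EMB, or embigin, fell to 114 CPM with cytokines, against 150.4 CPM with vehicle. SLC16A1, a monocarboxylate transporter that beta cells keep low, averaged 6.84 ± 0.102 CPM with cytokines and 9.25 ± 0.380 CPM with vehicle and was lower (edgeR, adjusted p = 0.0010), a call lost with DESeq2 and its own filter. SLC16A3, a second partner of this kind, averaged 4.75 and 4.74 CPM and did not pass (edgeR, adjusted p = 0.93).

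Of 8 genes listed with DPP4 by family or only by the dipeptidyl peptidase name, 7 were tested, 6 were higher and 1 did not pass. Thus 85.7% of those tested passed, beside 57.1% of all tested genes. With library size alone, however, only DPP3 was higher and DPP8 was lower. DPP3, which shares the name but not the protein family of DPP4, had a log2 change of 0.37. That of DPP10 was 0.31, and the DPP10 call was lost with library size alone (edgeR, adjusted p = 0.093). The 12 genes listed around FCGRT were its partner B2M, antibody-binding proteins and the class I-like molecules AZGP1, MR1 and CD1D. Of these 12, 3 were tested and all 3 were higher, beside 28.3% of all tested genes. B2M is given above, and TRIM21, a cytosolic antibody receptor, averaged 82.7 ± 3.40 CPM with cytokines and 3.81 ± 0.286 CPM with vehicle. MR1 averaged 39.8 ± 2.16 CPM with cytokines and 22.7 ± 3.40 CPM with vehicle. The 9 untested genes, which include the Fc gamma receptors of leukocytes, had at most 7 counts in any library. A gene nearly silent in vehicle could be tested only if it rose, so counts over tested genes do not describe whole lists.

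Among 12599 other genes with a symbol and at least 5 CPM in the higher group, the pattern over the 6 libraries nearest to NRP1 was that of CHRM3, a muscarinic receptor, with a root mean square difference of 0.044 in log2 CPM centred on the vehicle mean, followed by CTHRC1 at 0.050. For CD55 the nearest were STMN2 at 0.025 and RAB5C at 0.029, for BSG they were PSMA7 at 0.014 and BCAP31 at 0.018, and for CXADR they were COA8 at 0.027 and AUH at 0.032. With 2 conditions in 6 libraries, many genes share each pattern.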

How the data were processed

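The data were 6 RNA-seq libraries of EndoC-BH5, 3 with cytokines and 3 with vehicle. Per the labels' protocols, total RNA went into NEBNext Ultra II Directional libraries. Per the submitters' processing notes, the build was GRCh38 and the tools included STAR 2.7.5a, cutadapt 2.10 and HTSeq 0.12.4, with no role stated. Neither the annotation release nor the use of strand in counting was given in the sources used here, so reads of overlapping antisense genes cannot be told apart.

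The authors deposited an estimated count per gene and library for 60611 genes, not normalised, of which 67.3% to 73.5% of the values above 0 in a library lay within 0.005 of a whole number. How fractions of a count arose was not stated. Per the file headers, they also deposited group means of the estimated counts, a log2 fold change and log2 CPM, a p-value with FDR, and a test score (F). The deposited length column was not used. The columns named NT were taken as vehicle, since the other 3 carry the cytokine name and replicate numbers match the titles.

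Estimated counts were rounded, filtered with filterByExpr (17847 genes left) and scaled with TMM. TMM factors were 0.931, 0.932 and 0.935 in the cytokine libraries and 1.08, 1.06 and 1.08 in the vehicle libraries. The test was edgeR 4.0.16 in R 4.3.3, its robust quasi-likelihood test with group as the only term, two-sided, with Benjamini-Hochberg adjustment over all tested genes at 0.05. SE was the log2 change divided by the square root of F, and intervals used the total degrees of freedom. The scripts were run on simulated counts in which only a small share of genes changed, unlike here. That run therefore says little of the scaling. Pairs of replicates differed by a chi-square of 1.34 to 2.32 per gene, above sampling noise, so none was counted as 1. Coordinates and merged exon lengths were taken from GENCODE 29 (GRCh38), where 58352 gene identifiers were found. Low counts limit precision below about 1 CPM, most of all in vehicle replicate 1.

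The members and lists were chosen with earlier results of these data known. Named genes were the 8 members, 13 fixed partners, up to 2 higher and 2 lower genes of each of 9 lists with at least 1 CPM, and the 2 genes nearest in pattern to each member that passed. Some genes named by this rule are not reported here. CR1L and SEMA3A lay outside this rule, as did genes named in passing as untested or as markers. Alternatives were DESeq2 size factors, library size alone, DESeq2 1.42.0, no count filter, 1 CPM in 3 libraries, unrounded counts, the replicate number as a block, an adjusted p of 0.01, glmTreat against a fold of 1.5, and each library left out in turn.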

Additional observations from a re-analysis of the deposited data

How the results depend on the processing

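The calls of NRP1, CD55, BSG and CXADR and the lack of a call for CD46, DPP4 and FCGRT held with DESeq2 size factors, DESeq2, no count filter, at least 1 CPM in 3 libraries, unrounded counts, an adjusted p of 0.01 and each library left out. Over the 8 genes and all alternatives, 108 of 116 values kept their direction and side of the threshold or stayed within the replicate spread. With glmTreat against a fold of 1.5, 1 of the receptor genes passed, NRP1, and 2345 of all genes, against 10199 with the main test; glmTreat asks the stricter question by construction. The calls of CXADR (log2 change -0.26), CD55 (0.56) and BSG (0.28) were lost there (glmTreat, adjusted p = 1.0 for each). With library size alone, CD46 (-0.26) and DPP4 (-0.32) passed, FCGRT turned to -0.12, and BSG at 0.078 no longer passed; the factors of TMM, which differ between the groups, are what this setting removes. Of all calls 49.6% were higher with TMM and 25.3% with library size alone. Leaving out a library gave 0.66 to 1.53 for the log2 ratio of pooled TMPRSS2 counts, whose value was 0.94, with the highest without vehicle replicate 3, which held 4 of its 6 vehicle counts. The same step gave log2 changes of 1.57 to 1.73 for NRP1, 0.54 to 0.61 for CD55, 0.24 to 0.32 for BSG and -0.30 to -0.21 for CXADR. The groups share replicate numbers, but deviations of same-numbered libraries correlated across genes at 0.064, 0.033 and -0.073, so the numbers were not taken as pairs. With the replicate block, 10111 genes passed and 4 receptor genes did, as in the main fit, with log2 changes of 1.62 for NRP1, 0.57 for CD55, 0.28 for BSG and -0.25 for CXADR. No group had more than 3 libraries, so no library was tested as an outlier.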
